A study of Homo sapiens with 8 samples.

Results

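The comparison described here is that of cells labelled OGFOD1 OE (overexpression) with control cells within Molm13, a human acute myeloid leukaemia line known for a fusion of the KMT2A gene and for a duplication within FLT3. It rests on 4 of the 8 libraries of the study: the OE light, control light, OE heavy and control heavy libraries. These 4 were chosen by their labels and by the matching columns of the deposited count table, not by any measured value. OE cells received a lentiviral vector that carries OGFOD1, whose promoter the labels do not name. The control libraries carry the tag Scr in their names, and the labels do not say which vector this stands for. All cells were treated with cycloheximide, which holds ribosomes on mRNA, and each lysate was run on a sucrose gradient. The light library of a gradient holds RNA outside ribosomes or bound by at most a pair of them, and the heavy library its fractions with 3 or more ribosomes. There was 1 library per genotype and pool, and both pools of a genotype come from 1 gradient as far as the labels say, so the OE light library was paired with the control light library and the OE heavy library with the control heavy library. This gives no replicate. A gene is therefore called higher or lower by size and direction in both pairs, with no p-value.

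OGFOD1 is an oxygenase that depends on iron and 2-oxoglutarate and hydroxylates a proline of RPS23, a protein of the small ribosomal subunit that lies at the decoding centre. In polysome profiling the number of ribosomes on an mRNA sets how far it travels in the gradient, so the heavy pool is rich in actively translated mRNA and the light pool in RNA with few or no ribosomes. The level of an RNA in a pool depends both on how much of it the cell holds and on which share of it is loaded with ribosomes. An RNA with an altered total amount would move the same way in both pools, while an RNA that passes between pools would move in opposite ways.

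The 4 libraries held 25741930 (OE heavy) to 89373133 (control light) counts, and 27392 to 33915 genes had a count. The control light library stood apart. Mitochondrially encoded genes took 19.8% of the counts of the OE light library but 2.49% of the control light library, against 20.5% and 23.3% in the OE and control light libraries labelled U937, a second leukaemia line of the study. In the heavy libraries the shares were 0.360% (OE) and 0.797% (control). Across the 9182 genes at a mean of at least 10 CPM (counts scaled to library size, with TMM factors), the heavy-over-light ratio of the Molm13 control correlated at 0.359 to 0.458 with that of the other 3 gradients, which correlated at 0.869 to 0.913 with each other, and its SD was 0.682 against 1.05 to 1.31. The log2 levels of the control light library correlated at 0.931 with the OE heavy and 0.912 with the control heavy library. With the OE light library they correlated at 0.853. Every light pair value below rests on that library, so the heavy pair, which does not use it, is given beside it throughout. For the same reason, opposite signs in the pairs are not read below as passage between pools, which was not tested.

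The labels of line were also weak. Of 10987 genes at 10 CPM or more in any library, 9 differed by 2-fold or more in the same direction in all 4 matched pairs of Molm13 and U937 libraries, and 0 differed by 4-fold or more. All 8 myeloid leukaemia markers and all 5 markers of KMT2A-rearranged lines were present in the Molm13 libraries. FLT3 stood at 149 (OE light), 136 (control light), 170 (OE heavy) and 85.3 CPM (control heavy). HOXA9 stood at 92.8, 97.8, 67.9 and 61.3 CPM in the same order. Under the U937 label FLT3 stood at 93.6, 113, 202 and 114 CPM and HOXA9 at 91.2, 98.9, 107 and 94.0 CPM. These markers thus did not tell the line labels apart. The 12 erythroid and megakaryocyte markers summed to under 1 CPM in each Molm13 library, the 6 B cell markers to 2.23 to 8.37 CPM and the 10 epithelial and fibroblast markers to 6.49 to 23.9 CPM. The 8 T and NK cell markers summed to 96.1 (OE light), 274 (control light), 562 (OE heavy) and 181 CPM (control heavy). NKG7 and CD3D made up nearly all of that sum, while the defining T cell gene CD3E had 1 count in the 4 libraries together and KLRD1 had 0.

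OGFOD1 (ENSG00000087263; chr16:56451490-56479100, plus strand, GRCh38) was lower in the libraries labelled OE in both pairs. It stood at 16.7 CPM in the library labelled OE light and 33.0 CPM in the library labelled control light, and at 25.3 CPM in the library labelled OE heavy and 44.4 CPM in the library labelled control heavy. The log2 ratios were -0.99 in the light pair (exact 95% interval -1.10 to -0.87) and -0.81 in the heavy pair (-0.94 to -0.69). These intervals, and all others below, cover counting error only. The target gene thus goes against the label OE, and OE and control below name labels only: every ratio is that of a library labelled OE over a library labelled control. How the vector's reads were handled is not given in the sources used here. RPS23 (chr5:82273358-82278577, minus strand), the substrate, stood at 2009 CPM (OE light) and 1304 CPM (control light) and at 1187 CPM (OE heavy) and 1360 CPM (control heavy), with log2 ratios of 0.62 and -0.20. It was higher in the OE library of the light pair and lower in the OE library of the heavy pair.

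The light and heavy pairs gave different pictures of the genome. Of the 9182 genes, 495 were higher by 2-fold or more (a log2 ratio of at least 1) in the light pair (5.39%) and 2094 were lower (22.8%), while 785 were higher in the heavy pair (8.55%) and 639 were lower (6.96%). The median log2 ratio was -0.29 in the light pair and 0.03 in the heavy pair. Across genes the ratios of both pairs correlated at -0.20, a description over genes of the same 4 libraries, against 0.74 between the light and heavy pairs labelled U937. The sign was the same in both Molm13 pairs for 3852 genes (42%); 15.3% of all genes were positive in both pairs and 26.6% negative in both.

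**Figure D1:**
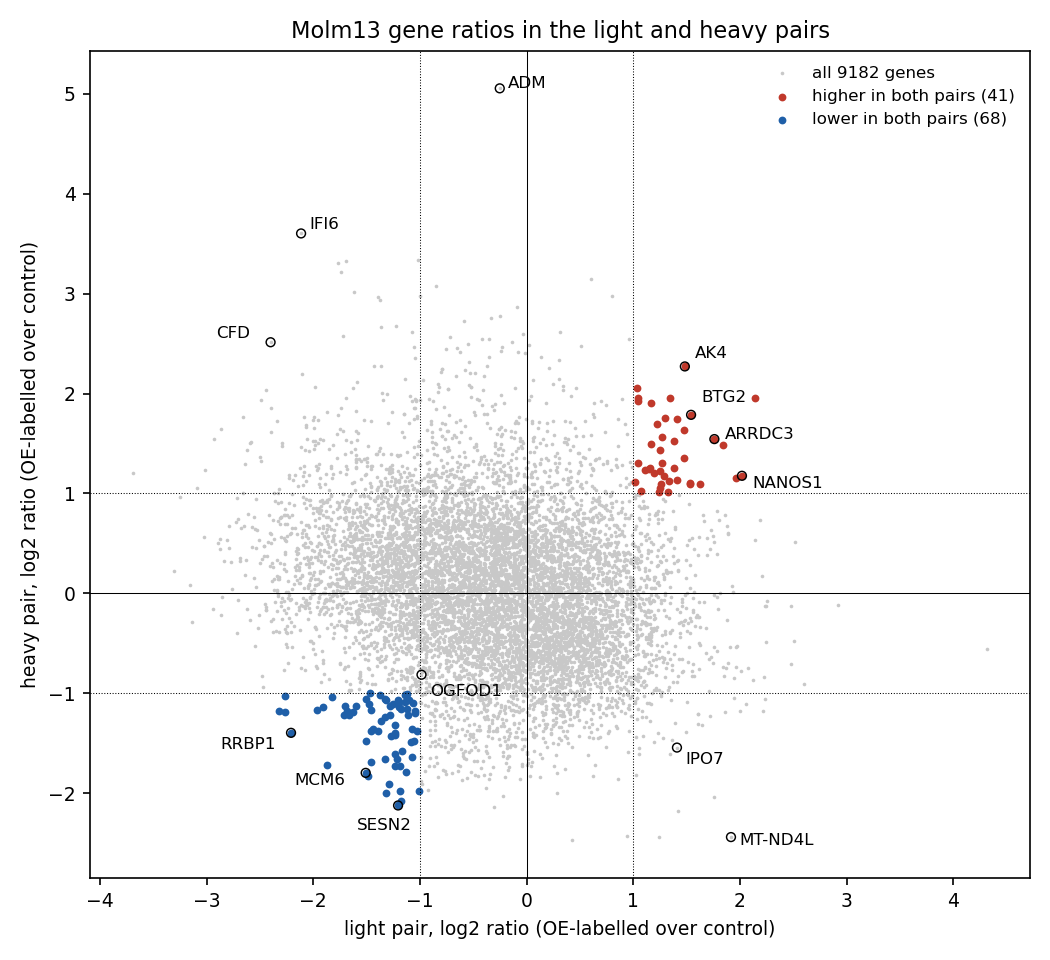
Log2 ratio of the OE-labelled over the control library in the light pair (x axis) and in the heavy pair (y axis) for 9182 genes of the Molm13 libraries, with dotted lines at a log2 ratio of 1 and -1. The 41 genes higher in both pairs and the 68 lower in both lie in the corners, and the upper left corner, lower in the light pair and higher in the heavy pair, holds more genes than either.

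At a log2 ratio of at least 1 in each pair, 41 genes were higher in both (0.447% of the 9182) and 68 were lower in both (0.741%). The split between directions depended on scaling: it was 54 higher and 54 lower with DESeq2 size factors and 66 higher and 44 lower with upper-quartile scaling. All 41 higher genes stayed called under both. Of the 68 lower genes, 54 stayed with DESeq2 size factors and 44 with upper-quartile scaling. In the opposite corners, 246 genes were lower in the light pair and higher in the heavy pair (2.68%), and 46 were the reverse (0.501%). The 41 higher genes hold 35 protein-coding genes and the 68 lower genes 55; they lie on 18 and 20 chromosomes. Just inside the threshold on the higher side were BEST1 (1.24 and 1.01, light and heavy) and FYTTD1 (1.02 and 1.11), and just outside ADIPOR1 (1.02 and 0.98) and C12orf76 (0.99 and 1.27). On the lower side YARS1 (-1.47 and -1.002) and LSG1 (-1.13 and -1.01) were just inside, and UBA1 (-0.99 and -1.63) and TOP1 (-0.99 and -1.08) just outside. In bulk libraries such as these, fewer cells of a kind and less RNA per cell cannot be told apart.

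Of the protein-coding genes higher in both pairs, ARRDC3 came first by the smaller of its ratios. ARRDC3 (chr5:91368724-91383359, minus strand), an arrestin-fold adaptor for ubiquitin ligases, stood at 41.8 CPM in the library labelled OE light against 12.3 CPM in the library labelled control light, and at 13.2 CPM in the library labelled OE heavy against 4.50 CPM in the library labelled control heavy. Its log2 ratios were 1.76 (95% interval 1.66 to 1.87) and 1.54 (1.32 to 1.78). BTG2 (chr1:203305491-203309602, plus strand), an antiproliferative protein that recruits the deadenylase complex to mRNA, stood at 66.0 CPM (OE light) and 22.6 CPM (control light) and at 40.4 CPM (OE heavy) and 11.7 CPM (control heavy), with ratios of 1.54 (1.46 to 1.62) and 1.79 (1.65 to 1.93). For both genes the OE library was the higher of its pair by more than counting error.

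AK4, an adenylate kinase of the mitochondrial matrix, had the largest heavy ratio of the 15 genes named by rule: 45.5 CPM (OE light) and 16.2 CPM (control light), and 30.3 CPM (OE heavy) and 6.26 CPM (control heavy), or 1.48 and 2.27 on the log2 scale. MYLIP, the ubiquitin ligase that marks the LDL receptor for degradation, was among the most abundant of them at 276 CPM (OE light) and 112 CPM (control light), and 186 CPM (OE heavy) and 55.3 CPM (control heavy). Its log2 ratios were 1.30 and 1.75. PNRC1, a regulator of mRNA decapping and of nuclear receptors, stood at 186 CPM (OE light) and 77.4 CPM (control light) and at 108 CPM (OE heavy) and 36.4 CPM (control heavy). Each of these 3 was lower in the heavy library than in the light library of its own gradient.

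ITGAM, the alpha chain of the integrin Mac-1 and a marker of myeloid maturation, stood at 53.8 CPM (OE light) and 22.6 CPM (control light) and at 37.3 CPM (OE heavy) and 13.7 CPM (control heavy), with log2 ratios of 1.25 and 1.44. CD180, a receptor related to the toll-like receptors, had ratios of 1.47 and 1.64, the adhesion molecule NCAM2 1.48 and 1.35, and the ectoenzyme CD38 1.11 and 1.24. IL7R, the alpha chain of the interleukin 7 receptor, was at 1.84 and 1.48 from low levels, 20.4 CPM (OE light) and 5.67 CPM (control light) and 10.4 CPM (OE heavy) and 3.72 CPM (control heavy). The gamma interferon receptor subunit IFNGR2 (1.63 and 1.10) was also past the threshold in both pairs. RGS1, which shortens signalling by G protein coupled receptors, was at 1.03 and 2.05.

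The other named genes of the higher group were IGLL5, an immunoglobulin lambda-like gene (1.41 and 1.75), the imprinted gene MEST (1.35 and 1.95), DENND10, which encodes a DENN domain protein (1.25 and 1.22), the lysosomal glycosidase gene CTBS (1.22 and 1.69), the phosphatase gene PTP4A3 (1.19 and 1.20) and NANOS1, an RNA-binding repressor of translation (2.02 and 1.18). The iron storage subunit FTH1 was the most abundant gene of the group at 1911 CPM (OE light) and 800.5 CPM (control light), and 855 CPM (OE heavy) and 412 CPM (control heavy). BEST1 overlaps FTH1 on the opposite strand and had nearly its values. IGLL5 (with IGLC1 and IGLJ1), MEST, CTBS, PTP4A3 and NANOS1 also overlap other counted genes, whose reads they may share. The sterol synthesis enzymes CYP51A1 (1.29 and 1.17) and SC5D (1.07 and 1.03) were in the group as well.

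**Figure D2:**
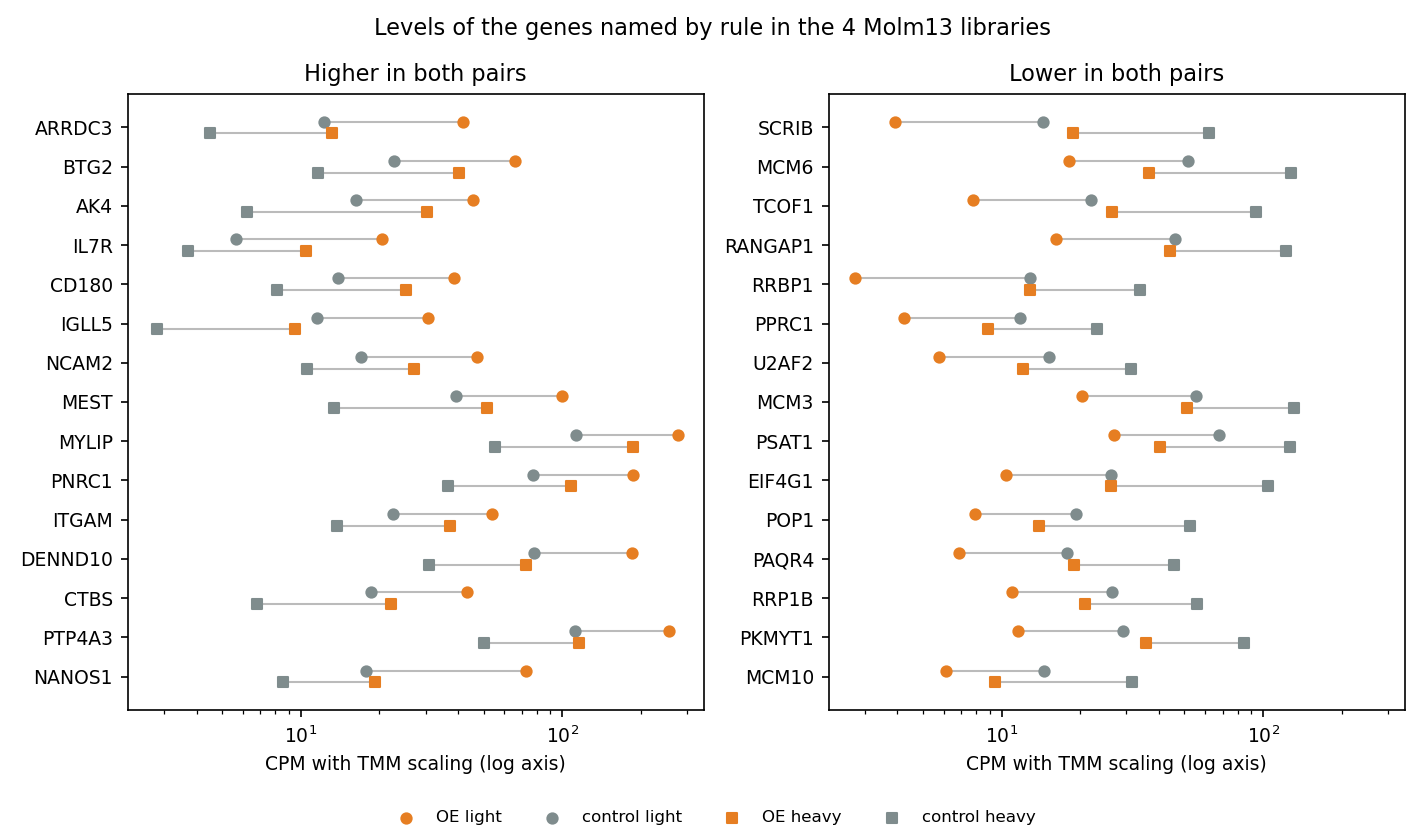
CPM with TMM scaling (log axis) of the 15 protein-coding genes per direction named by rule, in the OE and control libraries of the light pair (circles) and heavy pair (squares), with a line joining the members of a pair. In the left panel the OE library lies to the right of its control in every pair and in the right panel to the left, with ARRDC3 at 41.8 and 12.3 CPM in the light pair and MCM6 at 36.8 and 128 CPM in the heavy pair, OE and control.

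The genes lower in both pairs included subunits of the replicative helicase and other replication proteins. MCM6 (chr2:135839626-135876426, minus strand), a subunit of the helicase that unwinds DNA at replication forks, stood at 18.1 CPM (OE light) and 51.7 CPM (control light) and at 36.8 CPM (OE heavy) and 128 CPM (control heavy). Its log2 ratios were -1.51 (-1.62 to -1.41) and -1.80 (-1.90 to -1.70). MCM3 (chr6:52264009-52284881, minus strand), another subunit, stood at 20.3 CPM (OE light) and 55.2 CPM (control light) and at 51.0 CPM (OE heavy) and 131 CPM (control heavy), with ratios of -1.44 (-1.54 to -1.34) and -1.36 (-1.45 to -1.27). MCM10, which helps to activate the helicase, was at -1.23 and -1.73, the subunit MCM7 at -1.04 and -1.20, the DNA ligase LIG1 at -1.23 and -1.42 and the checkpoint mediator CLSPN at -1.22 and -1.66. For each of these 6 genes both OE libraries were below their control. Of the 6, only MCM6 and MCM3 stay past the threshold when each pair is centred on its median over all genes. These medians were -0.29 (light) and 0.03 (heavy).

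Of the 43 genes of a DNA replication list, 41 were at 10 CPM or more. The 6 just named were lower in both pairs, beside 0.741% of all genes, and 0 were higher, 29 of the 41 had a negative ratio in both pairs, beside 26.6% of all genes, and 0 a positive one, and the list median was -0.77 in the light pair and -0.77 in the heavy pair, beside -0.29 and 0.03 over all genes. In the heavy pair alone 18 members were lower by 2-fold or more, beside 6.96% of all genes, among them the polymerase subunits POLA1 (-1.82) and POLE (-1.69), the helicase subunits MCM4 (-1.73), MCM2 (-1.52) and MCM5 (-1.39) and GINS4 (-1.78). Members that went another way in the light pair were ORC1, of the origin recognition complex (1.28 and -0.69), the primase subunit PRIM2 (0.96 and -1.38), CDT1 (0.85 and -0.58) and the ribonucleotide reductase subunits RRM1 (0.58 and -1.61) and RRM2 (0.63 and 0.00). Mitotic genes had medians of -0.45 and -0.82 over 34 members; 0 passed the threshold in both pairs, 12 were lower in the heavy pair, and CDC20 (-1.12 and -0.87) and PRC1 (-0.86 and -1.28) came nearest. The cell cycle kinase gene PKMYT1 (-1.33 and -1.24), which is on no list, overlaps PAQR4 (-1.37 and -1.27) on the opposite strand.

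Promoters of replication genes are known to carry sites of the E2F factors, which drive S phase genes, and the promoters of the genes in both groups were searched for such letters because replication genes were among the lower ones. The search covered 250 bases before to 50 bases after the RefSeq start of each gene on GRCh38.p14, for 47 of the lower and 31 of the higher genes that matched by symbol. TTTCCCGC, TTTGGCGC or TTTCGCGC, on either strand, stood in 7 of the 47 lower promoters (14.9%), in 2 of the 31 higher ones (6.45%), in 5.37% of 6691 promoters of genes in the comparison and in 2.79% of 27305 promoters in all. The 7 were those of MCM6, MCM3, PAQR4, LIG1, CLSPN, CDK11B and MCM7. The promoters of MCM6 (chr2:135876444-135876693) and MCM3 (chr6:52284743-52284992), both on the minus strand, are printed because these genes rank first among the replication genes by the smaller of their ratios; each gives the 250 bases before the start, 5′ to 3′ toward the gene, with the matched letters in capitals:
MCM6: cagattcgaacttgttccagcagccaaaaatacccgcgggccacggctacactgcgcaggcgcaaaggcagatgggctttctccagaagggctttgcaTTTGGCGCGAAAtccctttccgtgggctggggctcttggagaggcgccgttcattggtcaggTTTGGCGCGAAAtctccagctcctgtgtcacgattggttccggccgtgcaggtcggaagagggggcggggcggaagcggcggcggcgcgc
MCM3: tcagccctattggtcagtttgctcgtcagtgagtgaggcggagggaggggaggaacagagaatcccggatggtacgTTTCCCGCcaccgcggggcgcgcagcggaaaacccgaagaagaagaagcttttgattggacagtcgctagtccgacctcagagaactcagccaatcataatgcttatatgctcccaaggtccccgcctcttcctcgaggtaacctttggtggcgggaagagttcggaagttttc
In MCM6 a match on one strand and a match on the other overlap at each of 2 places, which makes 4 matches. In MCM3 there was 1. The RefSeq start of MCM3 lies inside the gene position given above, so part of its printed stretch does too. The CCAAT box letters stood in 53.2% of the lower, 41.9% of the higher and 38.1% of the promoters of genes in the comparison, and the E-box CACGTG in 14.9%, 6.45% and 10.96%. The other 5 of the 8 motifs searched were no more frequent in the lower group than in the comparison: the hypoxia element (TACGTG or GACGTG) stood in 8.51% of the lower, 6.45% of the higher and 14.8% of the promoters in the comparison, and the sterol element TCACNCCAC in 0%, 3.23% and 1.14%. The FOXO letters GTAAACA, the ATF4 letters TGATGCAA and the interferon element stood in 0 promoters of either group, against 2.15%, 0.523% and 2.76% in the comparison. A match describes the letters and is no evidence that a factor was bound.

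The lower group also held genes of ribosome assembly and translation. TCOF1, which encodes the nucleolar protein treacle needed for rRNA transcription, stood at 7.78 CPM (OE light) and 21.9 CPM (control light) and at 26.4 CPM (OE heavy) and 93.9 CPM (control heavy), with log2 ratios of -1.49 and -1.83. The nucleolar protein gene RRP1B was at -1.27 and -1.42 and POP1, a subunit of RNase P and RNase MRP, at -1.29 and -1.91. Of 48 ribosome biogenesis factors, TCOF1 and RRP1B were lower in both pairs, beside 0.741% of all genes, and 0 were higher, while 40 had a negative ratio in both pairs, beside 26.6% of all genes, and 0 a positive one; the medians were -0.73 and -0.76. NOLC1 (-0.83 and -1.50) and WDR43 (-0.84 and -0.90) followed. Members near or above 0 in the light pair but low in the heavy pair included DDX21 (0.05 and -1.69), WDR36 (0.32 and -1.47) and WDR75 (0.16 and -1.45).

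EIF4G1, the scaffold of the cap-binding complex, stood at 10.4 CPM (OE light) and 26.2 CPM (control light) and 26.2 CPM (OE heavy) and at 104 CPM (control heavy), or -1.32 and -1.99 on the log2 scale. It was the only 1 of 35 initiation and termination factors past the threshold in both pairs; EIF5B was at -0.87 and -1.23 and ETF1 at -0.39 and -1.05, and the medians were -0.45 and -0.17. GCN1, which senses stalled ribosomes, was at -1.07 and -1.64, and the ribosome-binding membrane protein genes RRBP1 and LRRC59 were at -2.21 and -1.40 and at -1.37 and -1.02. The 79 cytosolic ribosomal protein genes, by contrast, had medians of 0.22 in the light pair and -0.43 in the heavy pair, with 0 past the threshold in both pairs. In this list 50 were positive in the light and negative in the heavy pair. A further 27 were negative in both, beside 26.6% of all genes, and 2 positive in both, beside 15.3%. Over all genes the sign was the same in both pairs for 42%.

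Some targets of the stress factor ATF4 and enzymes of amino acid metabolism were lower in both pairs. PSAT1, an aminotransferase of serine synthesis, stood at 27.0 CPM (OE light) and 67.7 CPM (control light) and at 40.4 CPM (OE heavy) and 127 CPM (control heavy), with log2 ratios of -1.33 and -1.65. SESN2, a leucine sensor that restrains mTORC1, had lower levels, 6.14 CPM (OE light) and 14.2 CPM (control light) and 7.10 CPM (OE heavy) and 31.0 CPM (control heavy), with ratios of -1.20 and -2.12. These 2 of the 16 members of the ATF4 list were lower in both pairs, beside 0.741% of all genes, and 0 were higher. ASNS (-0.93 and -1.97) and PHGDH (-0.82 and -1.22) followed, and the medians were -0.46 and -0.78. Of the 16, 9 were negative in both, beside 26.6% of all genes, and 1 was positive in both, beside 15.3%. A further 3 were negative in the light pair only and 3 in the heavy pair only. Of 20 cytosolic aminoacyl-tRNA synthetases, which charge tRNA, YARS1 (-1.47 and -1.002) was lower in both pairs. Of the 20, 15 were negative in both, beside 26.6% of all genes, and the medians were -0.46 and -0.90. The mitochondrial enzymes PCK2 (-1.23 and -1.39) and GPT2 (-1.28 and -1.13) and the pyrimidine synthesis enzyme CAD (-1.13 and -1.79) were in the lower group.

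Except for MPO and FCGR1A, the other lower genes given here are on no list; those outside the naming rule were chosen after their values were seen. HMGB1, an abundant chromatin protein, stood at -1.63 and -1.19, with its pseudogenes HMGB1P5 (-2.27 and -1.19) and HMGB1P6 (-1.96 and -1.17), whose reads may be shared with it. HNRNPA2B1 (-1.19 and -1.13), HNRNPAB (-1.91 and -1.14), HNRNPM (-1.20 and -1.08) and the splicing factors U2AF2 (-1.39 and -1.37) and PRPF19 (-1.70 and -1.13) bind pre-mRNA or act in the spliceosome. The repair enzyme PARP1 (-1.23 and -1.60), the remodeller SMARCA4 (-1.08 and -1.48), the histone chaperones CHAF1A (-1.19 and -1.72), NASP (-1.05 and -1.18) and SUPT16H (-1.33 and -1.06) and the cohesin subunit SMC3 (-1.07 and -1.10) act on chromatin. SCRIB, a polarity scaffold, came first by the smaller of its ratios, with 3.91 CPM (OE light) and 14.4 CPM (control light) and 18.8 CPM (OE heavy) and 61.9 CPM (control heavy), or -1.87 and -1.72. The granule enzyme MPO, made by myeloid progenitors, was at -1.46 and -1.16 and the Fc receptor FCGR1A at -1.03 and -1.38. RANGAP1 (-1.50 and -1.48), which acts in nuclear transport, and the transcriptional coactivator gene PPRC1 (-1.46 and -1.38) complete the 15 named lower genes.

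Over the 38 gene lists, each with 6 to 79 members at 10 CPM or more, the medians had the same sign in both pairs for 18 lists, 10 of them negative and 8 positive. Of the other 20, 13 were negative in the light pair and positive in the heavy pair and 7 were the reverse. The lists were chosen with results of these libraries known, so their direction is described and not tested. Counts of members past the threshold stand beside 0.447% of all genes higher and 0.741% lower in both pairs, 5.39% and 22.8% in the light pair, and 8.55% and 6.96% in the heavy pair.

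**Figure D3:**
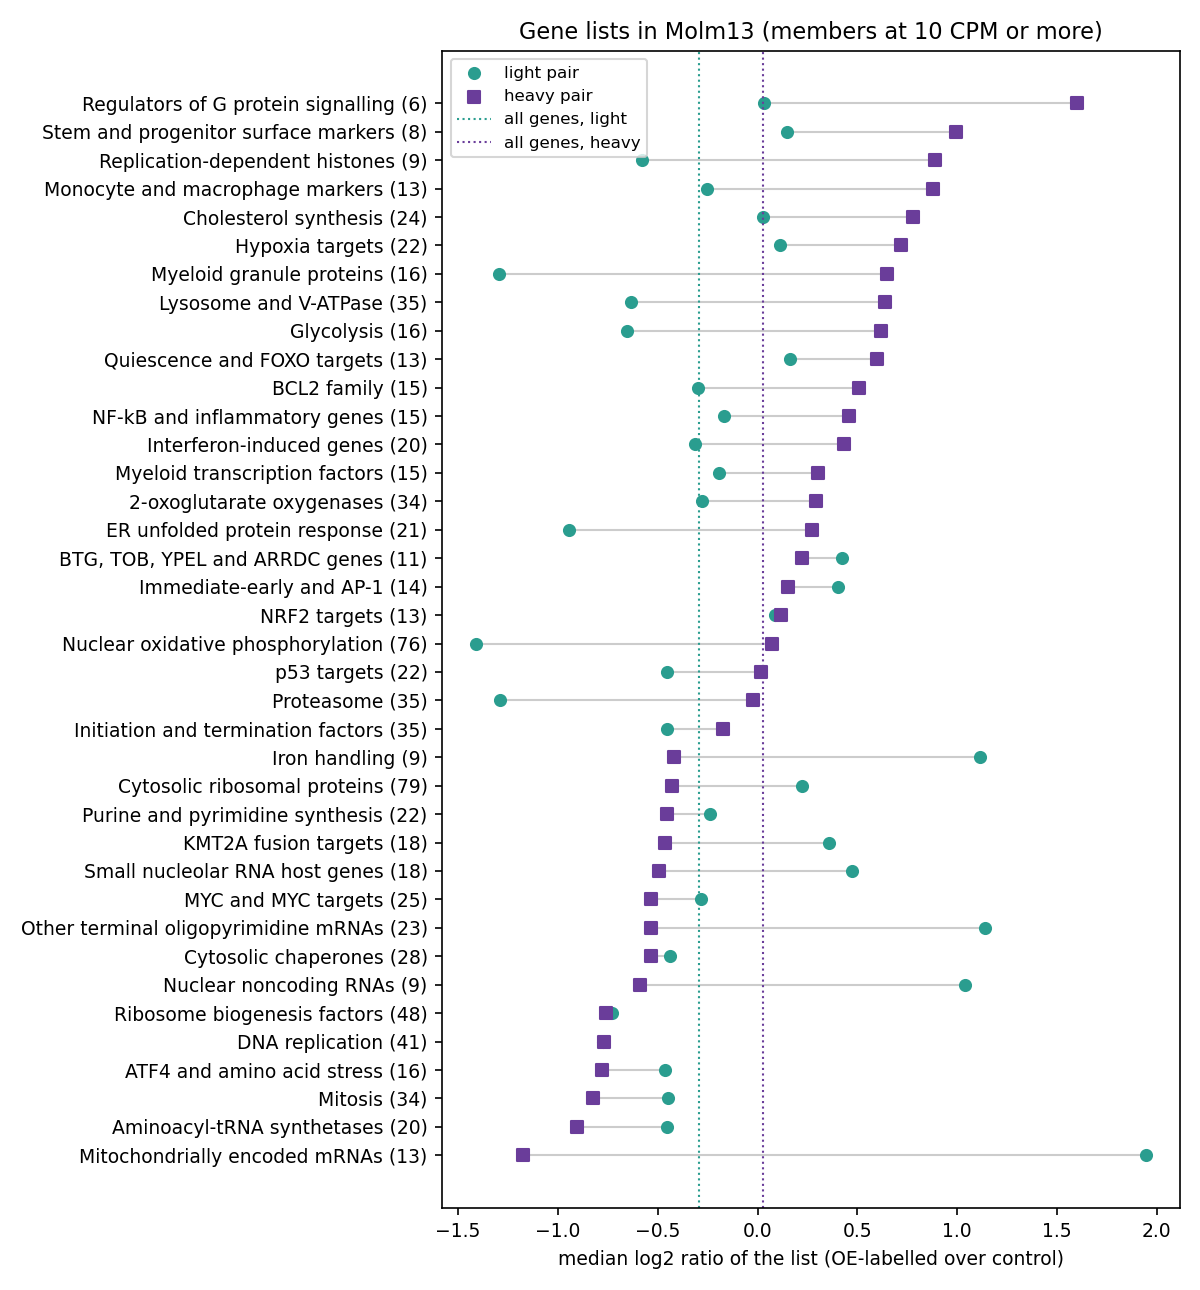
Median log2 ratio of the OE-labelled over the control library for each of 38 gene lists in the light pair (circles) and heavy pair (squares), with the number of members at 10 CPM or more in brackets and dotted lines at the medians of all genes, -0.29 and 0.03. Replication and ribosome biogenesis lie left of both lines at the same place in both pairs, while mitochondrially encoded mRNAs stand at 1.95 and -1.18 and nuclear oxidative phosphorylation genes at -1.41 and 0.07.

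Most of the positive lists had a larger median in the heavy pair than in the light pair, the BTG and immediate-early lists being the exceptions. Of 24 cholesterol synthesis genes, CYP51A1 and SC5D were higher in both pairs and 0 were lower. Of the 24, 11 were positive in both, beside 15.3% of all genes, and 0 negative in both, beside 26.6%. The medians were 0.03 and 0.78. MSMO1 (0.73 and 1.61) and STARD4 (1.40 and 0.64) were past the threshold in 1 pair, as was INSIG1 (0.18 and 1.48), while EBP (-1.68 and 0.84) and PMVK (-1.59 and 0.85) went opposite ways. Of 22 hypoxia targets, genes driven by HIF, 0 passed in both pairs in either direction, 9 were higher in the heavy pair and 1 in the light pair, and the medians were 0.11 and 0.72. P4HA1, a collagen prolyl hydroxylase, came nearest with 161 CPM (OE light) and 86.4 CPM (control light) and 164 CPM (OE heavy) and 42.3 CPM (control heavy), or 0.90 and 1.95. ADM, a vasodilator peptide gene, was at -0.25 and 5.05: 13.8 CPM (OE light) and 16.4 CPM (control light), and 39.4 CPM (OE heavy) and 1.15 CPM (control heavy). BNIP3 (-0.01 and 2.40), DDIT4 (-0.72 and 2.57) and CA9 (-1.72 and 2.57) were likewise high in the heavy pair alone.

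Of the 11 genes of the BTG, TOB, YPEL and arrestin-domain families, ARRDC3 and BTG2 were higher in both pairs and 0 lower, with medians of 0.42 and 0.22; TXNIP was at 0.95 and 0.09. Of 13 targets linked to quiescence and the FOXO factors, PNRC1 was higher in both pairs, CCNG2 stood at 1.53 and 0.90 and RGS2 at 0.51 and 2.48, and the medians were 0.16 and 0.60. RGS1 was the only 1 of 6 regulators of G protein signalling past the threshold in both pairs; RGS16 stood at 342 CPM (OE light) and 619 CPM (control light) and at 1435 CPM (OE heavy) and 170 CPM (control heavy), or -0.85 and 3.07. Of 13 monocyte and macrophage markers, ITGAM was higher and FCGR1A lower in both pairs, and the medians were -0.25 and 0.88. The alarmin genes S100A8 (-2.25 and -0.20) and S100A9 (-2.25 and -0.33) were low in the light pair, and CD68 (-0.58 and 2.73) and FCGR2B (-0.25 and 2.77) high in the heavy pair. Of 8 stem and progenitor surface markers, CD38 was higher in both pairs. CD44 (1.27 and 0.75), CD33 (0.16 and 1.00) and FLT3 (0.14 and 0.99) were positive in both. Of the others, 3 were negative in the light and positive in the heavy pair and 1 was the reverse. The list medians were 0.15 and 0.99.

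Several lists had medians of opposite sign in the pairs. The 13 mitochondrially encoded mRNAs, which are translated inside mitochondria, summed to 64737 CPM in the library labelled OE light and 16736 CPM in the library labelled control light, and to 3046 CPM in the library labelled OE heavy and 6013 CPM in the library labelled control heavy. Their median ratios were 1.95 and -1.18; all 13 were higher by 2-fold or more in the light pair and 8 lower in the heavy pair, with MT-CO1 (2.51 and 0.52) and MT-CYB (2.19 and 0.73) positive in both. The 18 small nucleolar RNA host genes at 10 CPM or more, spliced RNAs that are poorly translated, had medians of 0.47 and -0.49, and 23 further mRNAs with a terminal oligopyrimidine tract 1.14 and -0.53, led by PABPC1 (2.06 and -1.11), the poly(A)-binding protein.

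In the other direction, the 76 nuclear genes of oxidative phosphorylation had medians of -1.41 and 0.07, with 56 lower by 2-fold or more in the light pair, where 22.8% of all genes were, and 0 past the threshold in both pairs. They summed to 16643 CPM in the library labelled OE light and 39100 CPM in the library labelled control light, and to 41359 CPM in the library labelled OE heavy and 37099 CPM in the library labelled control heavy. The 35 lysosomal genes had medians of -0.63 and 0.64, with CTSB at -0.35 and 2.54. Of 16 myeloid granule genes, MPO alone was lower in both pairs, and the medians were -1.30 and 0.65. The 35 proteasome subunits were as low in the light pair but near 0 and not positive in the heavy pair, with medians of -1.29 and -0.02; 25 were lower by 2-fold or more in the light pair and 1 in the heavy pair. The control light sum of the oxidative phosphorylation genes was thus above the control heavy sum under the Molm13 label, while the U937 control libraries held 23099 CPM (light) and 54307 CPM (heavy).

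**Figure D4:**
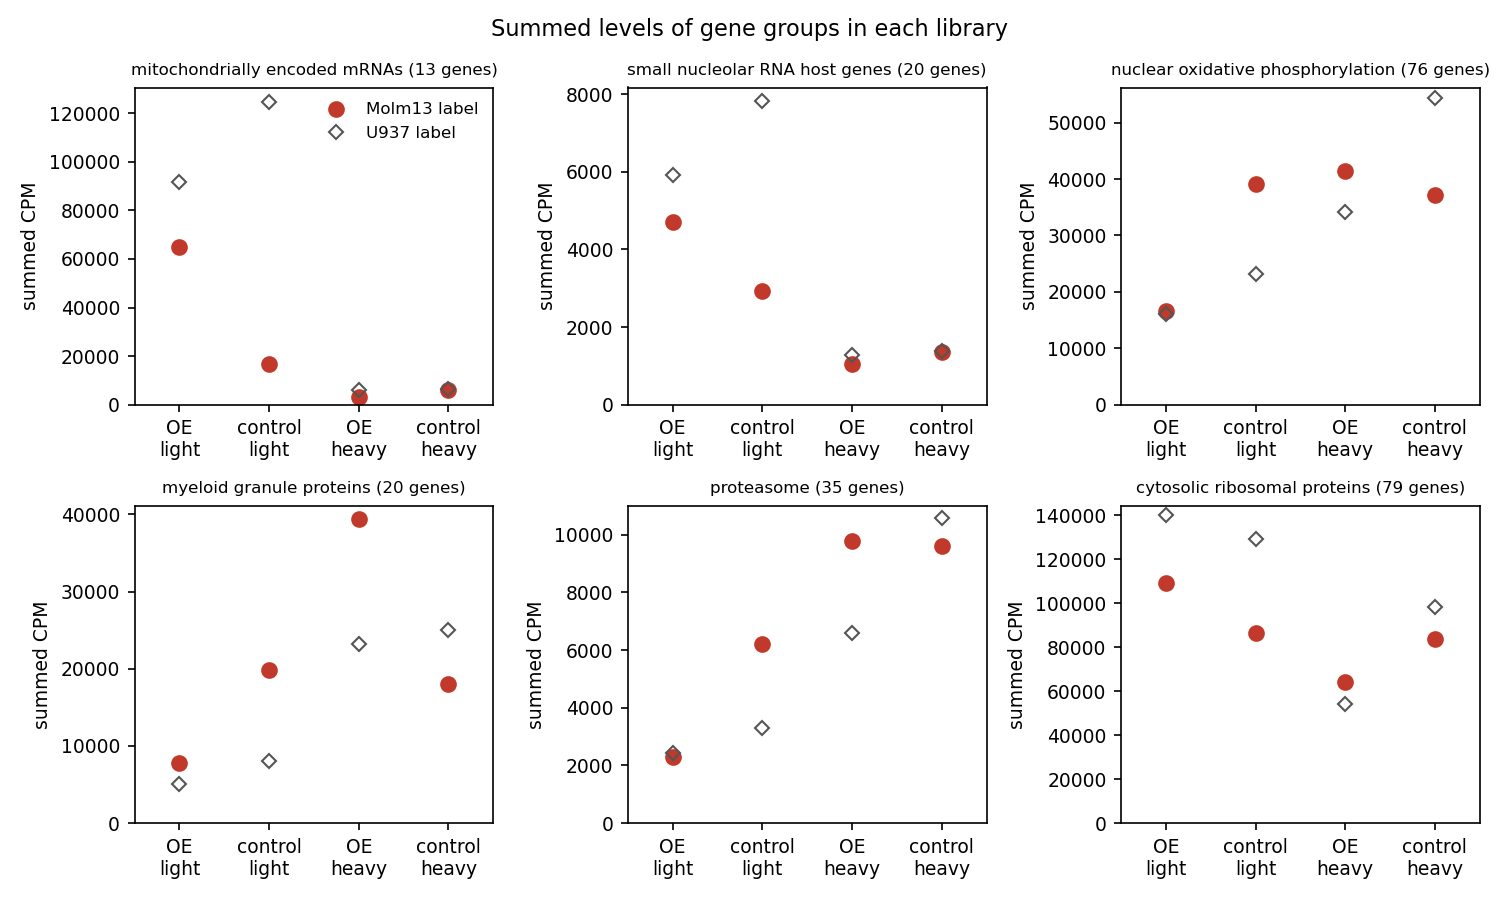
Summed CPM of 6 gene groups in the OE light, control light, OE heavy and control heavy libraries (x axis) labelled Molm13 (filled circles) and U937 (open diamonds). In the control light libraries, mitochondrially encoded mRNAs reached 16736 CPM under the Molm13 label and 124557 CPM under the U937 label, and oxidative phosphorylation genes 39100 and 23099 CPM.

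The 5 named genes lower in the light pair and higher in the heavy pair were CFD, IFI6, SLPI, IL4I1 and LRPAP1. CFD, the complement protease adipsin, stood at 214 CPM (OE light) and 1130 CPM (control light) and at 2719 CPM (OE heavy) and 476 CPM (control heavy), or -2.40 and 2.51 on the log2 scale. The interferon-induced gene IFI6 stood at 6.39 CPM (OE light) and 27.8 CPM (control light) and at 73.4 CPM (OE heavy) and 6.01 CPM (control heavy), or -2.11 and 3.60. SLPI (-2.45 and 2.03), IL4I1 (-1.99 and 2.07) and LRPAP1 (-2.39 and 1.85) encode a protease inhibitor, an amino acid oxidase and a receptor chaperone. In each of the 5 the OE heavy library was the highest of the 4 and the OE light library the lowest except for IFI6, in which the control heavy library was lowest. The 5 named genes of the reverse pattern were 4 mitochondrially encoded mRNAs, MT-ND4L (1.92 and -2.44), MT-ND2 (1.76 and -2.04), MT-ND4 (1.42 and -2.18) and MT-ATP6 (1.64 and -1.32), and the import receptor gene IPO7 (1.41 and -1.54). In the heavy pair alone, outside the rule, the highest named genes were ADM, IFI6, the chemokine gene CCL24 (-1.02 and 3.33), the chloride channel family gene CLIC3 (-1.69 and 3.33) and RGS16, and the lowest MT-ND4L, MT-ND1 (1.25 and -2.43), MT-ND4, the retinoblastoma family gene RBL1 (-0.31 and -2.14) and MT-ND2.

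The genes of both groups differed in make-up that the rule did not use. Among protein-coding genes with a transcript, the median coding length was 1068 bases for the 35 higher genes and 2235 bases for the 55 lower genes, beside 1248 bases over all genes. The median length of the 3′ untranslated region was 1447 bases in the higher and 543 bases in the lower group, beside 849 bases, and the median GC content of the transcript was 43.5% and 56.8%, beside 49.4%. The log2 heavy-over-light ratio of the U937 control gradient, which shares no library with the comparison, had a median of -1.03 for the 41 higher and 1.00 for the 68 lower genes, beside 0.34 over all 9182. Genes lower in the light and higher in the heavy pair had a median coding length of 726 bases, a GC content of 57.5% and a U937 heavy-over-light ratio of 1.75. Those of the reverse pattern had medians of 1809 bases, 42.7% and -1.29. GC content and the U937 ratio thus went with the sign of the light pair, whichever way the heavy pair went. They do not set apart genes that move the same way in both pairs. Length and GC content were thus not balanced between the groups, and their part in the ratios was not tested.

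The same genes were then read in the U937-labelled libraries, which come from other gradients. Of the 41 higher genes, 36 were positive in both U937 pairs (87.8%), beside 30.6% of all 9182 genes, and 20 were past the same threshold, beside 4.72%. Of the 68 lower genes, 61 were negative in both U937 pairs (89.7%), beside 43.4%, and 29 were past the threshold, beside 3.28%. Together this is 97 of 109 genes (89.0%). Of the genes past the threshold in 1 Molm13 pair, the same sign in both U937 pairs was found for 78.0% of those higher and 81.2% of those lower in the heavy pair, and for 50.3% and 61.0% in the light pair. Of the 246 genes lower in the light pair and higher in the heavy pair, 181 were positive in both U937 pairs (73.6%), as the heavy pair was; of the 46 of the reverse pattern, 27 were negative in both. Since the line labels hardly differ, how far the U937-labelled gradients are another line cannot be read from these libraries.

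**Figure D5:**
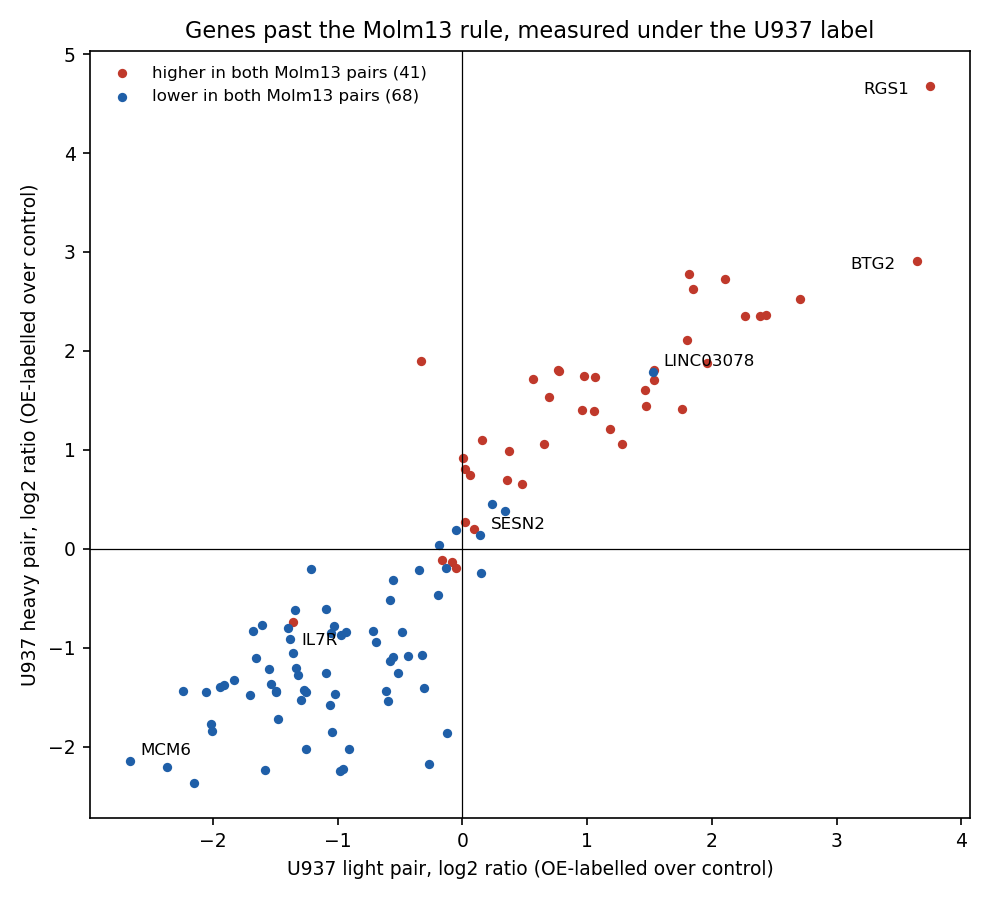
Log2 ratio of the OE-labelled over the control library in the U937 light pair (x axis) and heavy pair (y axis) for the 41 genes higher and the 68 lower in both Molm13 pairs. 36 of the 41 lie in the upper right and 61 of the 68 in the lower left, with IL7R (-1.35 and -0.73) and LINC03078 (1.53 and 1.79) on the far side.

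The median ratio of the higher genes was 0.98 (light) and 1.54 (heavy) under the U937 label, against 1.29 and 1.30 under the Molm13 label, and that of the lower genes -1.06 and -1.23, against -1.28 and -1.22. Single genes spread widely around these medians. BTG2 was at 3.65 (light) and 2.91 (heavy), RGS1 at 3.75 and 4.68, MYLIP at 2.26 and 2.35 and FTH1 at 2.44 and 2.36. On the lower side MCM6 was at -2.66 and -2.14, CLSPN at -2.15 and -2.36 and MCM10 at -2.37 and -2.20, while EIF4G1 was at -0.32 and -1.08. OGFOD1 was at -2.30 and -2.28. The 8 genes of the opposite sign in both U937 pairs were the higher genes IL7R, DENND10, NANOS1 and FAM151B-DT and the lower genes SESN2, FCGR1A, LINC03078 and ARAP1-AS1. LINC03078 alone of these was past the threshold in the opposite direction, with 9.55 CPM (OE light) and 31.4 CPM (control light) and 6.89 CPM (OE heavy) and 16.1 CPM (control heavy) under the Molm13 label, and 6.81 CPM (OE light) and 2.33 CPM (control light) and 5.12 CPM (OE heavy) and 1.46 CPM (control heavy) under the U937 label. Its Molm13 log2 ratios were -1.71 and -1.22. The ATF4 list as a whole had U937 medians of 0.10 and -0.27, and the aminoacyl-tRNA synthetases 0.13 and -0.45.

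The counts did not separate strands: for TALAM1, which lies antisense to MALAT1, the count was 99.9% to 100.0% of that of its partner in these libraries. Of the 105 genes past the rule with a position, 61 overlap another gene in the table of 24289 genes kept after the filter on low counts, and 7 pairs lie within the groups, among them FTH1 with BEST1, PAQR4 with PKMYT1, HMGB1 with ENSG00000285840 and RNF123 with GMPPB. Reads from the stretch that such a pair shares appear to have been counted for both genes. In the OE light library BEST1 stood at 1741 CPM and FTH1 at 1911 CPM. The members of such a pair are thus not independent in the counts of genes given above.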

How the data were processed

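RNA of the light and heavy gradient pools was sequenced after Smart-seq library preparation, per the labels' protocols. The authors deposited whole-number counts per gene ID; cutadapt, STAR, featureCounts and GRCh38 are named in the submitters' processing notes, without versions or strand setting. All 78932 IDs name a gene, and 0 columns of per-sample values were left unused. From the counts, edgeR 4.0.16 (R 4.3.3) kept 24289 genes with filterByExpr and computed TMM factors over all 8 libraries, CPM and log2 ratios with a prior count of 2; limma 3.58.1, DESeq2 1.42.0, Python 3.11.15, pandas 2.3.3 and scipy 1.17.1 were also used. Depth was 25741930 to 89373133 counts per Molm13 library. A gene was called at a log2 ratio of at least 1, or at most -1, in both pairs and a mean of at least 10 CPM over the 4 Molm13 libraries. Intervals are exact conditional binomial 95% intervals of the ratio of 2 counts; reads are not independent molecules, so they cover counting error only. The scripts were tested on simulated data. The members and gene lists were chosen with earlier results of these data known. Symbols matched 42179 IDs, and types and positions come from GENCODE 29.

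Named by rule were OGFOD1 and RPS23, per direction the 15 protein-coding genes with the largest value of the smaller ratio, up to 4 members per list by the same measure, and per direction 5 genes of opposite sign and 5 of the heavy pair alone; other genes named were chosen after their values were seen. The alternatives were other scalings, prior counts, expression minimums and thresholds, each pair alone, and edgeR and DESeq2 fits that use the pools as if they were replicates.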

Additional observations from a re-analysis of the deposited data

Results flagged for a closer look

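4 protein-coding genes named by rule had ratios of one sign in both Molm13 pairs and of the other sign in both U937 pairs; this difference between line labels was not tested. IL7R had a mean log2 ratio of 1.66 over both Molm13 pairs, against -1.35 (light) and -0.73 (heavy) under the U937 label. Its mean over the Molm13 libraries was 10.05 CPM, barely above the minimum of 10 CPM. Its levels were 5.67 CPM (control light) and 3.72 CPM (control heavy), so it passed that minimum through the OE libraries. DENND10 had a mean of 1.23 against -0.17 and -0.11, and NANOS1 a mean of 1.60 against -0.05 and -0.19, so the U937 values of both lay near 0. SESN2 had a mean of -1.66 against 0.14 and 0.14.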

How the results depend on the processing

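The main settings gave 41 higher and 68 lower genes, a mean OGFOD1 log2 ratio of -0.90, 18 lists of the same sign and 89.0% of genes with the same direction in both U937 pairs. Upper-quartile scaling gave 66 higher and 44 lower. The share of higher among called genes was 37.6% with TMM, 50% with DESeq2 size factors (54 and 54), 60% with upper-quartile scaling, 36.9% with TMM over the 4 libraries (45 and 77) and 40.2% with TMM without mitochondrial genes (49 and 73); the light-pair median was -0.29 with TMM and -0.22 to -0.10 with the other scalings. Leaving out one pair gave 785 higher and 639 lower genes and 79.4% (heavy pair alone), and 495 and 2094 genes and 58.9% (light pair alone). No filter on low levels gave 781 and 1155 genes and 46.6%, a minimum of 1 CPM 154 and 203, and one of 50 CPM 14 and 21 with 97.1%. A threshold of 0.5 gave 286 and 571 genes and 81.2%. Chosen after seeing the data, centring on the pair medians gave 63 and 33 genes and OGFOD1 at -0.77, and summing both pools of a gradient gave 330 and 334 genes. OGFOD1 was negative under every alternative that gave a value for it.

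The pools were also used as replicates, which they are not. edgeR's quasi-likelihood test on the 4 libraries then called 0 and 0 of 21989 genes, with 632 at an unadjusted p under 0.05 and a smallest adjusted p of 0.0801. On all 8 libraries it called 1 and 1 of 24289 (CYBRD1 and DYNC1I1, adjusted p = 0.0295), with 2414 unadjusted. CYBRD1 and DYNC1I1 had means of 3.22 and 6.50 CPM, below the minimum of 10 CPM used for the rule. DESeq2 on the 4 libraries called 0 and 0 of 21989, with 685 unadjusted and a smallest adjusted p of 0.113. The causes were not tested. With 1 library per genotype and pool, there were no replicates to pair. The pairing by pool is the comparison itself, and pool is a term in both fits on 4 libraries. The control light library enters every light ratio, and 1 gradient per genotype limits all of them.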
